A study of Mus musculus with 16 samples.

Results

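The 8 genes described here, *Gng2*, *Rhof*, *Pea15a*, *Cd53*, *Samhd1*, *Tes*, *Fam102a* and *Cd226*, had less mRNA in cKO than in control double positive (DP) thymocytes and differed less between the genotypes in CD8 thymocytes. They were chosen by these values themselves and are given by name. In a model of all samples, the cKO change in CD8 cells minus that in DP cells had an adjusted p under 0.05, and the change in DP cells was negative, which holds for 13 genes, the 8 and 5 others that are not in the set. The 8 genes are among 24974 that both count tables list, and all 8 passed the filter on low counts in every comparison. Their cKO changes in DP cells and in CD8 cells, and the difference between these changes, are therefore given as a description, and how many of the 8 meet a call rule there supports nothing. The 1 comparison tested for them is that of the cell types in control samples, whose outcome was known when they were chosen.

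The study asked what the loss of Tox4, a protein with an HMG box, does to gene expression in developing T cells. Strand-specific RNA-seq of polyA RNA was done on sorted mouse thymocytes. Control samples carry the genotype Tox4;F/F, in which exons 4 to 6 are floxed and no Cre is present, and cKO samples carry Tox4;F/F;Lck-cre, in which the proximal *Lck* promoter drives Cre in T lineage cells from a stage before DP. There were 3 control and 3 cKO samples of DP thymocytes, and 5 control and 5 cKO samples of CD8 thymocytes sorted as positive for TCRβ and CD8. The floxed mice were on the C57BL/6 background, and littermates matched for sex were compared at 6 to 8 weeks of age. Since control mice carry no Cre, the presence of Cre and the loss of Tox4 cannot be told apart. The study calls its replicates biological, while the labels do not say whether each sample is a separate mouse, and the p-values measure the spread between these samples.

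Total counts on genes were 16524506, 18484568 and 17221704 in DP control samples 1 to 3 and 21154634, 14583336 and 25981683 in DP cKO samples 1 to 3. In CD8 cells they were 9420085, 10882293, 9899833, 10949265 and 13530783 in control samples 1 to 5 and 11687062, 11828492, 8905915, 8894000 and 8514135 in cKO samples 1 to 5. CD8 control sample 1 stands apart in genes detected. In it 17741 genes had at least 1 count, while the remaining CD8 control samples had 13708 to 14194 and the CD8 cKO samples 13788 to 15054. The CD8 samples numbered 1 and 2, of both genotypes, also stand apart from those numbered 3 to 5 in markers of the stages. In samples 1 and 2 *Rag1*, a recombinase of the antigen receptor genes, was at 78.8 to 122 CPM and *Cd4* at 61.6 to 77.7 CPM, against 12.1 to 34.7 and 3.67 to 10.5 CPM in samples 3 to 5. *Klf2*, a factor of mature T cells, was at 248 to 341 CPM in samples 1 and 2 and 462 to 949 CPM in samples 3 to 5. The fold changes and calls of the 8 genes, their order and the share of their CD8 level found in DP cells are given with and without samples 1 and 2, a choice made after the data were seen. Other levels, lists and sums use all samples. Levels are counts scaled to library size (CPM) after TMM normalization over all 16 samples, and levels of different genes are compared as TPM, which also takes the length of each gene into account.

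DP thymocytes carry both CD4 and CD8 and are rearranging and testing their T cell receptor. Those that pass selection become single positive cells, which gain receptors for survival signals, adhesion and exit from the thymus. Heterotrimeric G proteins, tetraspanins and adhesion receptors serve the migration and the cell contacts of T cells at these stages.

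The targeted gene itself was measured first. *Tox4* lies on chromosome 14 from 52279146 to 52295509 (mm10, + strand) and contains *Snord58b* on the same strand. Its level was 149, 165 and 175 CPM in DP control samples 1 to 3 and 128, 135 and 129 CPM in DP cKO samples 1 to 3. In CD8 cells it was 199, 191, 204, 207 and 183 CPM in control samples 1 to 5 and 173, 189, 178, 237 and 168 CPM in cKO samples 1 to 5. In DP cells all cKO samples lay below all control samples, and the log2 fold change of -0.32 (SE 0.11) had an adjusted p of 0.381 in the quasi-likelihood test of edgeR, adjusted over all genes by Benjamini-Hochberg. In CD8 cells the library labelled cKO 4 lay above every control sample, and cKO differed from control by -0.056 on the log2 scale (SE 0.10; edgeR adjusted p = 0.979). The counts cover the whole gene, including the exons that are not deleted, so this level checks the labels only in part.

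The labelled cell types were checked against their markers. *Rag1* was at 8108 CPM in DP control samples (mean, n = 3) and 52.9 CPM in CD8 control samples (n = 5), and *Cd4* at 1747 and 29.6 CPM. Of 12 DP markers, 11 were called lower in CD8 than in DP control samples and 0 higher by edgeR or DESeq2, among 12 with an unadjusted p under 0.05. *Runx3*, a transcription factor of the CD8 lineage, was at 36.4 and 609 CPM. A gene was called where its adjusted p was under 0.05, its fold change at least 1.5 and its mean TPM at least 1.

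*Gng2*, *Rhof* and *Pea15a* code for signalling proteins inside the cell. *Gng2*, on chromosome 14 from 19872559 to 19977249 (- strand), codes for a gamma subunit of heterotrimeric G proteins, which pass on signals from chemokine receptors. Its level was 14.1, 9.85 and 8.54 CPM in DP control samples 1 to 3 and 2.60, 2.93 and 3.09 CPM in DP cKO samples 1 to 3. In CD8 cells it was 85.7, 73.3, 91, 68.6 and 81.9 CPM in control samples 1 to 5 and 56, 55.7, 56.4, 68.2 and 81.5 CPM in cKO samples 1 to 5. The DP groups were far apart, and in CD8 cells 4 cKO samples lay below every control sample while cKO sample 5 was within their range. In each of the 5 pairs of CD8 samples with the same number the cKO sample had less *Gng2*, in pairs 4 and 5 by a small amount. The log2 fold change of *Gng2* was -1.91 (standard error 0.25) in DP cells and -0.33 (standard error 0.12) in CD8 cells. Its counts in the DP cKO samples were 57, 45 and 80, few enough for counting error to matter. In bulk samples such as these, fewer cells that express a gene and less of its RNA per cell cannot be told apart.

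Other beta and gamma subunits were mostly lower in CD8 than in DP control cells. Of 8 other beta and gamma subunits tested in control CD8 against control DP cells, 0 were called higher by edgeR or DESeq2 and 7 lower (median log2 fold change -0.83, against -0.011 over all genes), 7 having an unadjusted p under 0.05, with *Gngt2* at -2.04 and *Gnb2* at -1.09, whereas *Gng2* was higher. Over all genes 22.0% were called higher and 22.3% lower in this comparison. Among 9 alpha subunits, 0 were called higher by either tool and 1, *Gnai3*, lower in CD8 cells, no more than these shares, and 4 had an unadjusted p under 0.05.

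*Rhof*, on chromosome 5 from 123118180 to 123132629 (- strand), codes for a small GTPase that drives the formation of filopodia. It stood at 33, 31.9 and 34.2 CPM in DP control samples 1 to 3 and 15, 16.1 and 17.6 CPM in DP cKO samples 1 to 3. CD8 samples had 94.6, 111, 129, 139 and 125 CPM in control samples 1 to 5 and 103, 118, 128, 166 and 114 CPM in cKO samples 1 to 5. Every DP cKO sample lay below every DP control sample, and the CD8 groups overlapped. The log2 fold changes of *Rhof* were -1.03 (standard error 0.13) in DP and 0.074 (standard error 0.13) in CD8 cells.

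*Pea15a*, on chromosome 1 from 172196728 to 172206804 (- strand), codes for a small protein with a death effector domain that binds ERK and holds it in the cytoplasm. It was measured at 10.4, 11.9 and 11.2 CPM in DP control samples 1 to 3 and 4.83, 4.56 and 4.79 CPM in DP cKO samples 1 to 3. In CD8 thymocytes it reached 73.4, 68.8, 73.2, 76.6 and 62.6 CPM in control samples 1 to 5 and 51.9, 56.7, 60.6, 64.8 and 48.6 CPM in cKO samples 1 to 5. The DP groups did not overlap, while in CD8 cells the control sample with the least *Pea15a* lay within the range of the cKO samples. In each of the 5 same-numbered pairs the cKO sample had less *Pea15a*. Its log2 fold change was -1.24 (standard error 0.18) in DP and -0.33 (standard error 0.10) in CD8 cells. Of 10 partners of Pea15a in ERK and death receptor signalling, 5 were called higher and 0 lower by edgeR or DESeq2 in control CD8 cells, where the shares over all genes are 22.0% and 22.3% (median 0.58; 8 with an unadjusted p under 0.05), including *Rps6ka1* at 1.69 and *Casp8* at 1.19.

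Promoter sequences were looked at as a feature that the choice of the genes did not use. RefSeq promoters (GRCm38.p6) were found for 7 of the 8 genes, all but *Cd226*. The motif CCAAT, on either strand, was in the 250 bases before the start of 5 of 7 genes, *Rhof*, *Pea15a*, *Cd53*, *Tes* and *Fam102a*, and in 33.8% of 32851 promoters of the same length. The other motifs searched on both strands, none of which is contained in another, were GGGCGG in 3 of 7 (32.7% of all), TGTGGT in 2 (14%), CAGCTG in 1 (13%), CAGGTG in 0 (17.2%), CACGTG in 0 (6.02%) and TATAAA in 0 (12.4%). Base composition varied widely between the genes, with a GC content of 41.2% for *Gng2*, 45.2% for *Cd53*, 56.4% for *Rhof* and for *Pea15a*, 64.8% for *Tes*, 65.6% for *Samhd1* and 72% for *Fam102a*, against a median of 52.4% over all promoters. The windows of *Rhof*, *Samhd1*, *Tes* and *Fam102a* hold annotated exons, and those of *Gng2* and *Samhd1* begin from a RefSeq start 556 and 126 bases inside the gene as the count table gives it. These matches are a description of letters and not of sites. The windows of *Pea15a*, at chr1:172206805-172207054, and *Cd53*, at chr3:106790150-106790399, both on the - strand, lie upstream of the annotated gene with no annotated exon in them. They are shown 5′ to 3′ as an example of the motif on either strand, with CCAAT or its reverse complement ATTGG in capitals.
Pea15a: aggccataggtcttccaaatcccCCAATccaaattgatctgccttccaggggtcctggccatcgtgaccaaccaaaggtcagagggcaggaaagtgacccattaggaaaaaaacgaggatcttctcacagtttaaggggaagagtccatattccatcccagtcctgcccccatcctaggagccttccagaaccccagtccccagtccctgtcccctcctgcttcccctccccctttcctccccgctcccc
Cd53: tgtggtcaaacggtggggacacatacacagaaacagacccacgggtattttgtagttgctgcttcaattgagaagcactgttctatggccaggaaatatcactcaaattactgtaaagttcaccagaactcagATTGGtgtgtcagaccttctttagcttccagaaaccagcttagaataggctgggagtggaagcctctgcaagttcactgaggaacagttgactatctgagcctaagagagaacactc

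*Cd53* and *Cd226* code for membrane proteins of leukocytes. *Cd53*, on chromosome 3 from 106758861 to 106790149 (- strand), codes for a tetraspanin, a family that organizes receptors in the membrane. Its level was 81.4, 73 and 59.4 CPM in DP control samples 1 to 3 and 35.1, 35.1 and 29.7 CPM in DP cKO samples 1 to 3. CD8 cells had 431, 442, 590.1, 599 and 548 CPM in control samples 1 to 5 and 491, 428, 607, 613 and 568 CPM in cKO samples 1 to 5. The DP cKO samples all lay below the DP control samples, and the CD8 groups overlapped. Within CD8 cells the samples numbered 1 and 2 had less *Cd53* than those numbered 3 to 5 in both genotypes. The log2 fold change of *Cd53* was -1.10 (standard error 0.15) in DP cells and 0.055 (standard error 0.13) in CD8 cells. Among 15 other tetraspanins, 7 were called higher and 4 lower in control CD8 than in control DP cells, beside 22.0% and 22.3% of all genes (median 0.54), *Tspan9* at 4.46, *Cd82* at 1.66 and *Cd81* at -1.66.

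*Cd226*, on chromosome 18 from 89197427 to 89270327 (+ strand), codes for an activating receptor that binds the poliovirus receptor Pvr and a nectin. The level was 15, 13 and 11 CPM in DP control samples 1 to 3 and 6.47, 8.34 and 6.22 CPM in DP cKO samples 1 to 3. For CD8 cells it was 129, 114, 147, 123 and 125 CPM in control samples 1 to 5 and 122, 122, 143, 170.5 and 167 CPM in cKO samples 1 to 5. Its DP groups did not overlap, and in CD8 cells cKO samples 4 and 5 lay above every control sample while the others were within their range. The log2 fold changes of *Cd226* were -0.90 (standard error 0.20) in DP and 0.19 (standard error 0.11) in CD8 cells. Of 6 other genes of this receptor family and its ligands, 3 were called higher in control CD8 than in control DP cells, *Crtam* at 5.58, *Tigit* at 1.14 and *Cd96* at 1.01, and 1, the ligand *Pvr*, was lower at -1.54 (median of the list 0.84), beside 22.0% and 22.3% of all genes.

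*Samhd1*, on chromosome 2 from 157097529 to 157135222 (- strand), codes for an enzyme that breaks down deoxynucleotide triphosphates, the building blocks of DNA. Its mRNA was at 25.7, 25.9 and 19.7 CPM in DP control samples 1 to 3 and 13.5, 13.4 and 11.2 CPM in DP cKO samples 1 to 3. In CD8 cells it was at 358, 250.2, 293, 284 and 296 CPM in control samples 1 to 5 and 316, 281, 343, 348 and 321 CPM in cKO samples 1 to 5. The highest DP cKO sample was below the lowest DP control sample, and the CD8 groups overlapped. Its log2 fold change was -0.91 (standard error 0.17) in DP cells and 0.12 (standard error 0.10) in CD8 cells. The other enzymes of deoxynucleotide supply and turnover were mostly lower in control CD8 cells, 9 of 15 being called lower and 1 higher, beside 22.3% and 22.0% of all genes (median -1.03), with *Ada* at -3.14 and *Dck* at -2.22. Of 8 markers of cycling cells, 7 were called lower and 0 higher in the same comparison (median -1.74). The part of cycling cells in the lower values of these enzymes was not tested.

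*Tes*, on chromosome 6 from 17065149 to 17105825 (+ strand, with *Gm4876* on the other strand), codes for testin, a protein with LIM domains found at focal adhesions. It was present at 64.2, 76.1 and 81.7 CPM in DP control samples 1 to 3 and 41.3, 41.7 and 44.5 CPM in DP cKO samples 1 to 3. In CD8 cells its level was 155, 131, 136, 149 and 139.6 CPM in control samples 1 to 5 and 141, 148, 128, 164 and 129 CPM in cKO samples 1 to 5. The DP groups did not overlap, and the CD8 groups covered nearly the same range. The log2 fold changes of *Tes* were -0.80 (standard error 0.13) in DP and 0.00037 (standard error 0.089) in CD8 cells. Among 16 other LIM and focal adhesion genes, 5 were called higher and 1 lower in control CD8 than in control DP cells, a number higher near the 22.0% of all genes and fewer lower than their 22.3% (median 0.0032), *Evl* at 2.87 and *Zyx* at 1.37.

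*Fam102a* lies on chromosome 2 from 32535359 to 32569750 (+ strand) and holds *Mir5098* and *Mir684-1* on the same strand. Its level was 83.5, 93.8 and 90.6 CPM in DP control samples 1 to 3 and 51.5, 47.1 and 55.2 CPM in DP cKO samples 1 to 3. In CD8 cells it was 786, 658, 647, 619 and 619 CPM in control samples 1 to 5 and 666, 701, 654, 762 and 585 CPM in cKO samples 1 to 5. The DP groups did not overlap, the CD8 groups did, and CD8 control sample 1 was the highest of the CD8 samples. Its log2 fold change was -0.80 (standard error 0.11) in DP cells and 0.018 (standard error 0.10) in CD8 cells. The related gene *Fam102b* was not called by edgeR or DESeq2 in any of the 3 comparisons, with log2 fold changes of 0.34 in control CD8 against control DP cells (unadjusted p under 0.05), -0.21 for DP cKO and 0.078 for CD8 cKO against control.

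**Figure D1:**
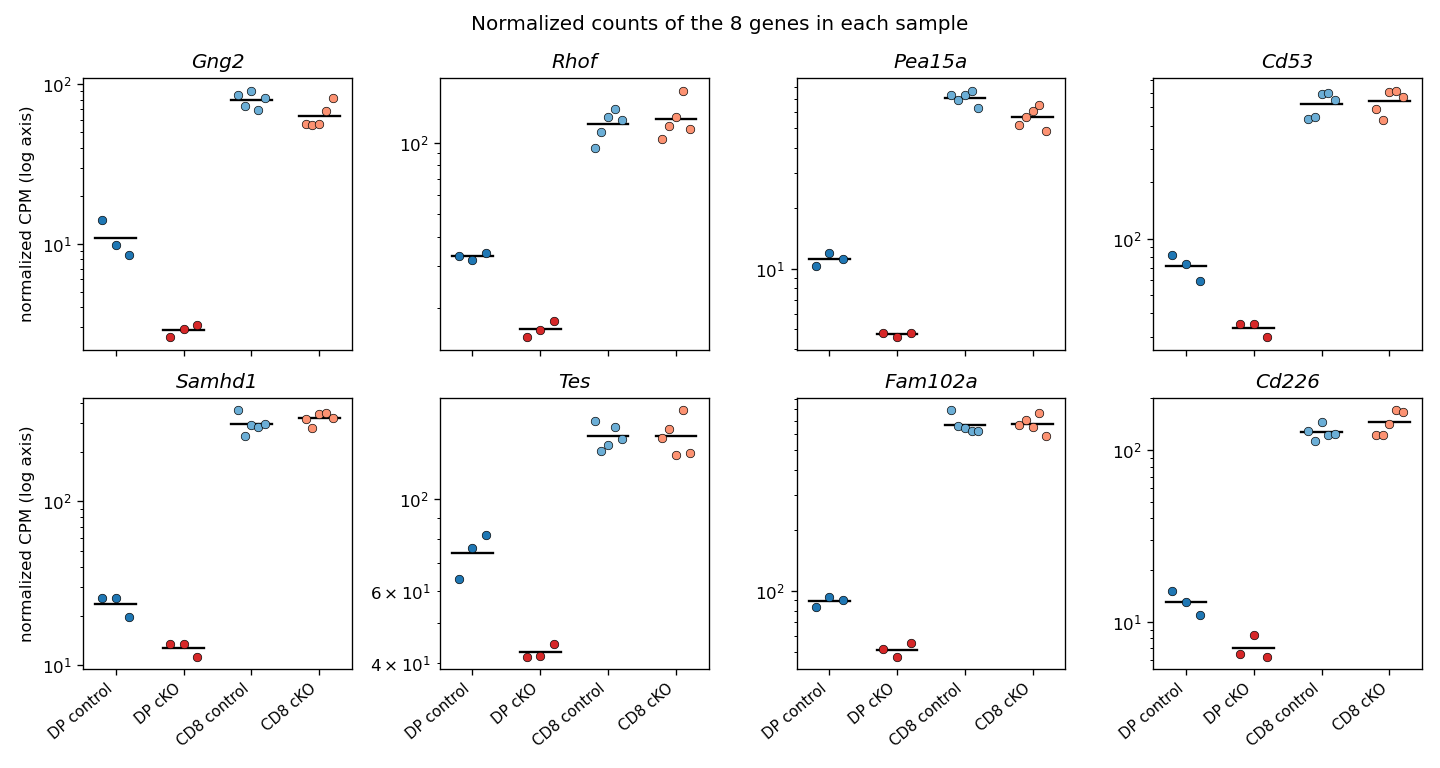
Normalized counts in CPM (log axis, a separate scale in each panel) of the 8 genes in DP control, DP cKO, CD8 control and CD8 cKO samples, with 1 point per sample and a line at the group mean. In each panel the 3 DP cKO samples lie below the 3 DP control samples, as the genes were chosen for, and the CD8 control and cKO samples overlap; *Gng2* has the lowest DP cKO level, with a mean of 2.87 CPM.

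Set side by side, the changes in DP cells ran from -1.91 for *Gng2* to -0.80 for *Tes* and *Fam102a* on the log2 scale, and those in CD8 cells from -0.33 for *Gng2* to 0.19 for *Cd226*. *Gng2* and *Pea15a*, the genes with the greatest falls in DP cells, were also the 2 with negative values beyond their standard error in CD8 cells. The CD8 change minus the DP change was 1.58 for *Gng2*, 1.15 for *Cd53*, 1.09 for *Rhof*, 1.09 for *Cd226*, 1.02 for *Samhd1*, 0.91 for *Pea15a*, 0.82 for *Fam102a* and 0.80 for *Tes*. The call rule was met in DP cells by 5 of the 8 genes, all but *Samhd1*, *Tes* and *Cd226*, where 7 of 11748 genes tested (0.0596%) were called lower and 10 (0.0851%) higher; nothing is read from this count, since the genes were chosen on the same contrast. Without any 1 of the 6 DP samples, 0 of the 8 met the rule in DP cells with edgeR. The 8 with an unadjusted p under 0.05 in those fits, and the 8 called by DESeq2 on all samples, are no sign of stability, since this change helped to choose the genes. In CD8 cells edgeR and DESeq2 both called 0 of the 8, 2 of which (*Gng2* and *Pea15a*) had an unadjusted p under 0.05 with either tool. There edgeR called 10 of 11227 genes (0.0891%) higher and 1 (0.00891%) lower, or 25 (0.223%) higher and 6 (0.0534%) lower with the replicate number as a block, and 4 higher and 1 lower without the samples numbered 1 and 2; 629 genes had an unadjusted p under 0.05 with all samples. Of the 5 same-numbered CD8 pairs, the cKO sample was the lower in 5 for *Gng2* and *Pea15a*, 3 for *Tes*, 2 for *Rhof*, *Fam102a* and *Cd226*, and 1 for *Cd53* and *Samhd1*.

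Without CD8 control sample 1 the CD8 log2 fold changes were -0.31 for *Gng2*, -0.31 for *Pea15a*, 0.088 for *Fam102a*, 0.20 for *Samhd1*, 0.19 for *Cd226*, 0.036 for *Tes*, 0.003 for *Rhof* and -0.0045 for *Cd53*. Without the library labelled CD8 cKO 4 they were -0.36 for *Gng2*, -0.046 for *Rhof*, -0.38 for *Pea15a* and 0.12 for *Cd226*. Without the CD8 samples numbered 1 and 2 of both genotypes they were -0.22 for *Gng2*, -0.28 for *Pea15a*, 0.22 for *Samhd1* and 0.29 for *Cd226*, with the other 4 between -0.00018 and 0.095. In these fits edgeR called 0 of the 8 in CD8 cells, where 3, 2 and 2 of them had an unadjusted p under 0.05.

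**Figure D2:**
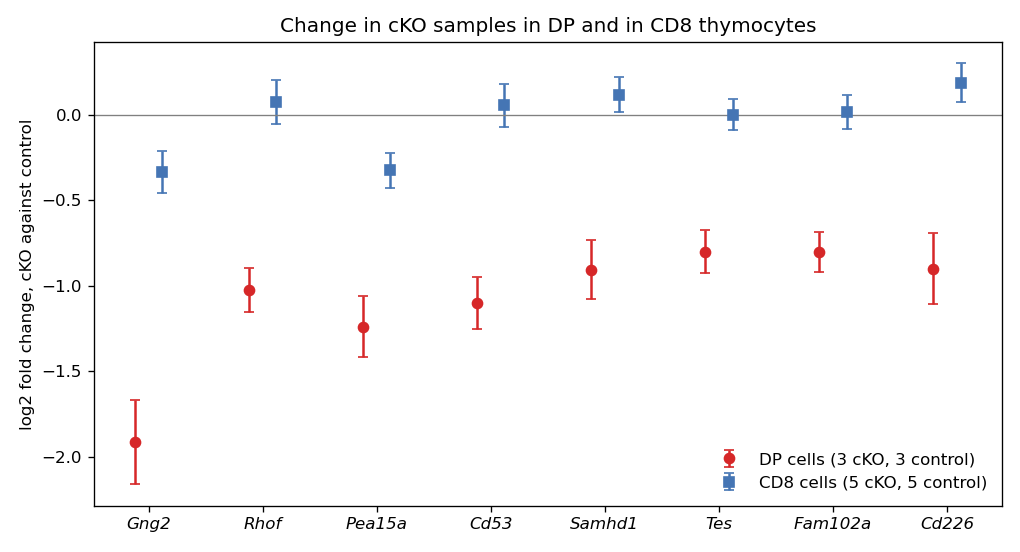
Log2 fold change of cKO against control samples for the 8 genes in DP cells (circles, 3 cKO and 3 control samples) and in CD8 cells (squares, 5 and 5), with bars of 1 standard error from the edgeR fit and a line at 0. All DP values lie below 0, from -1.91 to -0.80, by the choice of the genes, and the CD8 values lie between -0.33 and 0.19.

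Relatives of the 8 genes were counted by the same rule. Over the 8 lists of related genes, without the 8 themselves, edgeR called 0 of 79 genes in DP cKO against control and 0 of 77 in CD8 cKO against control, where 4 and 2 had an unadjusted p under 0.05 and DESeq2 called 1 (*Tspan9*) and 0. With as few of all genes called as 0.0596% and 0.0851% in DP cells, a count of 0 in lists of this size says nothing particular about the relatives. The median log2 fold changes of the lists in DP cells ran from -0.21 for *Fam102b* alone and -0.17 for the relatives of *Cd226* to 0.11 for those of *Samhd1*, and those in CD8 cells from -0.11 for the tetraspanins to 0.12 for the G protein beta and gamma subunits. Over all genes tested the medians were -0.0011 in DP and -0.0060 in CD8 cells. *Tspan9* was at -0.79 in DP cells and -0.16 in CD8 cells.

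The threshold that chose the genes was passed by 13 of 12131 genes (0.107%). All 13 had a negative value in DP cells. Apart from the 8, these were *Gimap3*, *Gimap4*, *Bcl2*, *Ccnd2* and *F13a1*, the last of which had a difference of 1.99 with almost no change in DP cells. *Cd226* was just inside, at a difference of 1.09, together with *Ccnd2*, at 1.16. *Bach2*, at 0.63, *Nat10*, at -0.74, and *Acvrl1*, at 1.30, were just outside. The adjusted values of 7 of the 8 genes were tied at 0.0499, against 0.0655 for *Bach2* and 0.0684 for *Nat10* and *Acvrl1*, so with the main setting membership rests on a narrow margin. With upper-quartile normalization 3 genes passed, 1 of the 8 among them. DESeq2 passed 36 genes and the replicate number as a block 33, all 8 among them each time. With the block the edgeR adjusted p was 0.000665 to 0.0197, although the rule used for pairing by number was met in CD8 cells only. All 8 also passed with at least 10 counts in every sample, 7 with RLE normalization and 6 without a low-count filter. The TPM minimum does not enter this threshold, so leaving it out changes nothing here. With edgeR, 1, 0 and 4 of the 8 passed without DP control sample 1, 2 and 3, 0 without any 1 of the DP cKO samples, 3 without CD8 control sample 1, and 1 without each of CD8 control samples 2 to 5. It was 6, 3, 1 and 3 without CD8 cKO sample 1, 2, 3 and 5, 0 without the library labelled CD8 cKO 4, and 2 without the CD8 samples numbered 1 and 2. An unadjusted p under 0.05 for all 8 in each of these fits is no sign of stability, since the genes were chosen by this test.

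The rule that chose the genes did not test control CD8 against control DP samples, a comparison that asks how the 8 genes differ between the cell types where Tox4 is intact. All 8 were called higher in CD8 cells, in a table in which 2588 of 11758 genes (22.0%) were called higher and 2625 (22.3%) lower. *Samhd1* had the greatest difference, 3.67 on the log2 scale (SE 0.16; edgeR adjusted p = 1.16e-08), followed by *Cd226* at 3.31 (standard error 0.14). *Fam102a* at 2.93, *Gng2* at 2.91 and *Cd53* at 2.90 were within their standard errors of each other, with *Pea15a* at 2.69 just below. *Rhof* at 1.88 (standard error 0.13) and *Tes* at 0.97 (standard error 0.11; edgeR adjusted p = 1.39e-05) differed least. For each of the 8, all 5 CD8 control samples lay above all 3 DP control samples. Cell type and count table cannot be told apart in this comparison, whose control samples are also those of the cKO comparisons. Without CD8 control sample 1 all 8 were still called, from 0.94 for *Tes* to 3.60 for *Samhd1*, and without CD8 control samples 1 and 2 from 0.97 to 3.64. That these genes are higher in CD8 cells was known when they were chosen, so this count is no independent support.

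**Figure D3:**
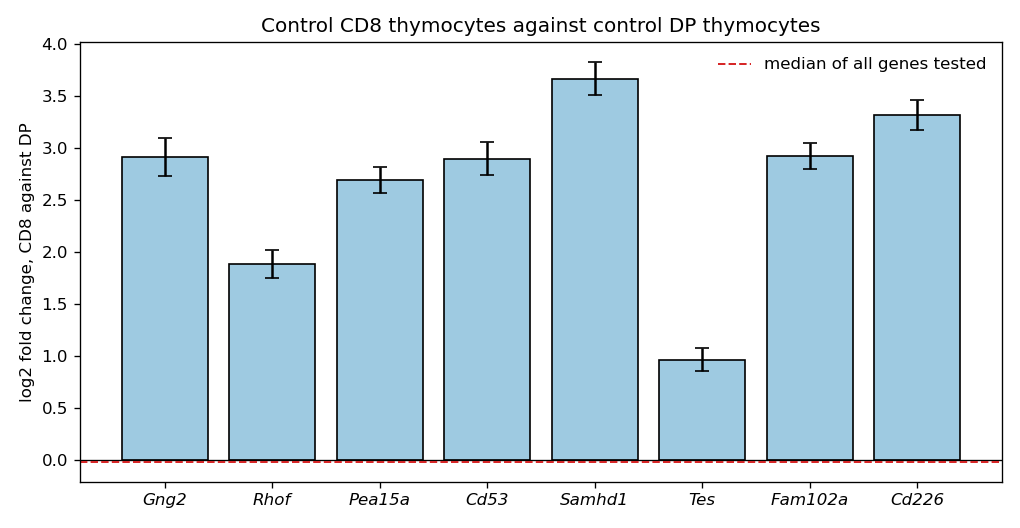
Log2 fold change of the 8 genes in control CD8 (n = 5) against control DP samples (n = 3), as bars with 1 standard error from the edgeR fit; the dashed line is the median of all 11758 genes tested, at -0.011. All 8 bars lie above it, from 0.97 for *Tes* to 3.67 for *Samhd1*.

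Per length, the order of the 8 genes differed between the cell types. In DP control samples the TPM was 89.3 ± 7.23 for *Tes*, 75.5 ± 14.7 for *Cd53*, 62.5 ± 1.42 for *Fam102a*, 45.6 ± 2.52 for *Rhof*, 17.6 ± 3.08 for *Samhd1*, 15.6 ± 3.07 for *Cd226*, 13 ± 0.516 for *Pea15a* and 8.05 ± 2.56 for *Gng2* (mean ± SD, n = 3). The ranges of *Tes*, *Cd53* and *Fam102a* overlapped from neighbour to neighbour, as did those of *Samhd1*, *Cd226* and *Pea15a*, and *Rhof* and *Gng2* stood apart from their neighbours. In CD8 control samples the TPM was 589.8 ± 86.8 for *Cd53*, 500.1 ± 51.8 for *Fam102a*, 234 ± 27.7 for *Samhd1*, 184 ± 8.41 for *Tes*, 177 ± 24.5 for *Rhof*, 162 ± 16.5 for *Cd226*, 88.5 ± 6.38 for *Pea15a* and 63.3 ± 7.78 for *Gng2* (n = 5). There *Cd53* and *Fam102a* overlapped, and so did *Tes*, *Rhof* and *Cd226*, while *Samhd1*, *Pea15a* and *Gng2* did not overlap a neighbour. *Tes* went from the highest TPM in DP cells to rank 4 in CD8 cells, and *Gng2* was the lowest in all 4 groups. In DP cKO samples *Tes* stayed highest at 50.1 ± 1.02, *Fam102a* at 34.9 ± 1.88 and *Cd53* at 34.3 ± 5.08 overlapped, and *Gng2* was at 2.06 ± 0.106 (n = 3). In CD8 cKO samples *Cd53* was at 627 ± 99.7, *Rhof*, *Cd226* and *Tes* lay between 188 and 189.8, and *Gng2* was at 51.7 ± 11.6 (n = 5). Without the CD8 samples numbered 1 and 2, *Rhof* stood above *Tes* in CD8 control samples and *Cd226* above *Rhof* in CD8 cKO samples, and the other 6 genes of each group kept their rank.

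Since the 8 genes are higher in CD8 cells, markers of mature single positive thymocytes were measured in the DP samples. In DP control samples the 8 genes were at 8.01% (*Samhd1*), 10.2% (*Cd226*), 13.4% (*Fam102a*), 13.5% (*Gng2*), 13.6% (*Cd53*), 15.7% (*Pea15a*), 27.6% (*Rhof*) and 52.1% (*Tes*) of their mean CPM in CD8 control samples. By the same measure, the mature markers *S1pr1*, a receptor for exit from the thymus, and *Klf2*, which activates it, were at 0.471% and 1.34%, and *Itgae*, an integrin of CD8 cells, at 1.14%. In DP cKO samples, relative to CD8 cKO samples, the 8 genes were at 3.95% (*Samhd1*), 4.52% (*Gng2*), 4.83% (*Cd226*), 6.15% (*Cd53*), 7.61% (*Fam102a*), 8.36% (*Pea15a*), 12.9% (*Rhof*) and 29.9% (*Tes*), and *S1pr1* was at 0.200%. The level of all 8 genes in DP control cells, relative to CD8 cells, was thus above that of *S1pr1*, *Klf2* and *Itgae*.

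Several mature markers had lower values in the DP cKO samples as well. The CPM of *S1pr1* was 5.64, 2.41 and 2.52 in DP control and 1.55, 0.977 and 1.55 in DP cKO samples, that of *Il7r* 22.2, 16.8 and 11.7 and 11.6, 8.08 and 5.84, and that of *Itgae* 9.45, 10.2 and 4.99 and 2.60, 4.17 and 4.17. *Klf2* was at 6.55, 8.54 and 9.63 and 3.69, 7.23 and 9.51 CPM. The cKO samples had less *S1pr1*, *Il7r* and *Itgae* than every control sample, and the groups overlapped for *Klf2*. All 14 mature markers were in the tables, 13 of them were called higher in control CD8 than in control DP cells (median log2 fold change 3.47), and no marker was at 0 in all DP samples, though *Dapl1* was at 0 in 3 of them. The summed level of the list was 1268, 1244 and 1109.6 CPM in DP control samples and 1127, 1056 and 1141 CPM in DP cKO samples, and these values overlapped. The most abundant gene of the list in DP samples, *Cd27*, was at 452 and 481 CPM on average, and it was the 1 marker not called higher in CD8 cells, where it was at 333 CPM in control samples. Without it, a choice made after its values were seen, the sum was 768, 834 and 663 CPM in DP control and 609, 625 and 647 CPM in DP cKO samples, where the groups stood apart by a small gap. Without *B2m* in its place, the most abundant gene of the list over all 16 samples, it was 1041, 992 and 931 and 951, 886 and 965 CPM, and the groups overlapped, so the gap depends on which genes are counted. That last sum still holds *Cd27*. Of 13 mature markers tested by edgeR in DP cKO against control, 11 had a negative log2 fold change (median -0.33, against -0.0011 over all genes). Among the 13, 5 had an unadjusted p under 0.05 and 0 were called. In CD8 cells the sum of all 14 was 7512, 6026, 8432, 9278 and 8011 CPM in control and 6718, 6381, 8893, 9774 and 7318 CPM in cKO samples, led by *B2m* on average. The part of these markers in the falls of the 8 genes was not tested.

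**Figure D4:**
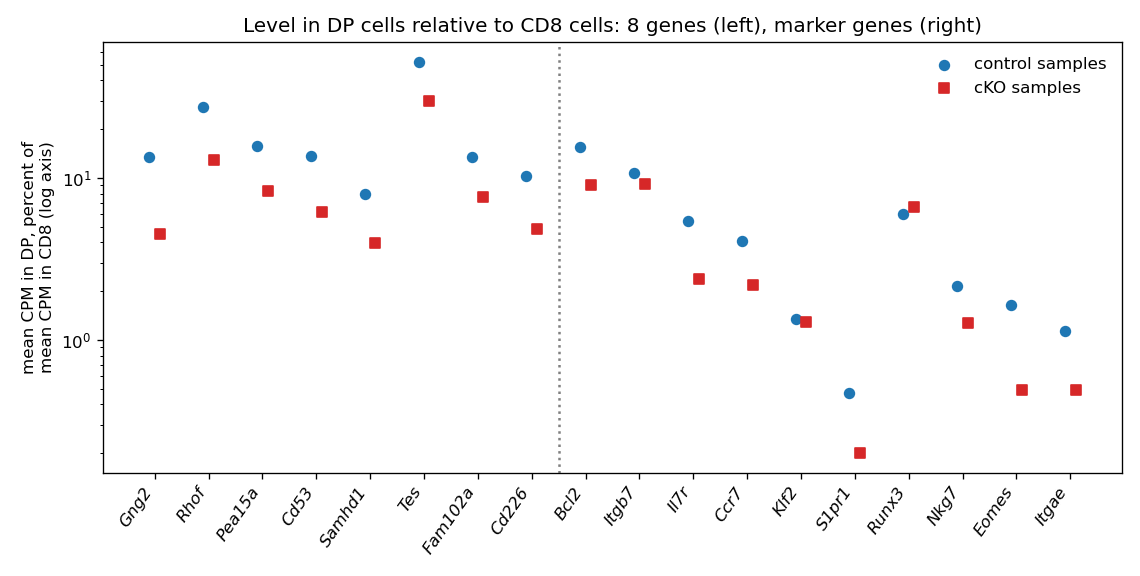
Mean CPM in DP samples as a percent of the mean CPM in CD8 samples (log axis), for control (circles) and cKO samples (squares), of the 8 genes (left of the dotted line) and of 10 markers of mature and CD8 lineage thymocytes (right). In control samples the 8 genes lie between 8.01% and 52.1% and *S1pr1* at 0.471%, and without the CD8 samples numbered 1 and 2 the 8 genes lie between 8.16% and 52.3%.

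Over all 10 marker lists, edgeR called 0 of 59 genes in DP cKO and 0 of 56 in CD8 cKO against control, where 19 and 5 had an unadjusted p under 0.05 and DESeq2 called 7 (*Bcl2*, *Ccr7*, *Itgae*, *Zbtb7b*, *Cd74*, *H2-Aa* and *Lyz2*) and 1 (*Sox13*). Over all genes tested, 1079 of 11748 in DP cells (9.18%) and 629 of 11227 in CD8 cells (5.60%) had an unadjusted p under 0.05, and DESeq2 called 159 and 46. The markers passed these 2 looser rules more often in DP cells, at 32.2% and 11.9%, than all genes did, and the difference was not tested. The median log2 fold change in DP cells was -0.33 for mature, -0.45 for CD8 lineage, -0.63 for CD4 lineage and regulatory, -1.17 for myeloid and dendritic, -1.08 for B cell, 0.20 for NK and γδ T cell, -0.0037 for DP and 0.35 for cycling cell markers, and *Epcam*, the 1 marker of thymic epithelium tested, was at -0.60. In CD8 cells the same medians were 0.0065, -0.032, 0.0005, 0.09, -0.12, 0.26, 0.12 and 0.31, and *Epcam* was at 0.12. No erythroid marker was tested. The 10 myeloid and dendritic markers summed to 80.5, 175 and 75.9 CPM in DP control and 44.9, 56.8 and 74.1 CPM in DP cKO samples, with *Cd74* the most abundant at 49.3 and 23.2 CPM on average. DP control sample 2 held the most of them and also the most *Pea15a* and *Fam102a* of the control samples. *Samhd1* was nearly level in samples 1 and 2, at 25.7 and 25.9 CPM, while *Gng2*, *Cd53* and *Cd226* were highest in sample 1 and *Rhof* and *Tes* in sample 3. The 5 B cell markers found, led by *Cd79b*, summed to 22.7, 30.2 and 18.9 CPM in DP control and 16.9, 19 and 20.1 CPM in DP cKO samples, and the 8 markers of cycling cells, led by *Top2a* on average, to 1414, 1449 and 875 and 2459.8, 1346 and 1368 CPM. The part of these cells in the falls of the 8 genes was not tested.

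In CD8 samples the myeloid and dendritic markers summed to 92.1, 60.8, 35.2, 45.6 and 39.7 CPM in control and 78.8, 78.8, 52.3, 49.6 and 53.8 CPM in cKO samples. The remaining lists are given by their range over samples, with the leading gene by group means. DP markers summed to 15579 to 20005 CPM in DP samples, led by *Rag1*, and 2902 to 3569 CPM in CD8 samples, led by *Cd8a* and *Cd8b1*, which are also CD8 lineage markers. CD8 lineage markers, led by *Cd8a*, summed to 2621 to 3937 and 3318 to 4331 CPM, and CD4 lineage and regulatory T cell markers, led by *Cd4* in DP samples, to 1595 to 1939 and 48.6 to 129 CPM. Those of NK and γδ T cells summed to 3.82 to 7.29 CPM in DP and 11 to 35.8 CPM in CD8 samples, and those of thymic epithelium, led by *Epcam*, to 3.45 to 8.71 and 1.14 to 6.38 CPM, with *Foxn1* at 0 in the DP samples. Of 6 erythroid markers, the 4 globin genes were at 0 counts in every sample.

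The genes outside the set whose levels most resembled the mean of the 8 over the 16 samples, by Pearson's r of log2(CPM + 1) among 10659 genes, were *Gimap3*, *Sorl1*, *Slfn1*, *Ccnd2*, *Zfp831*, *Bach2*, *Bcl2* and *Gimap4*, with r from 0.994 to 0.992. The 16 points fall into 2 cell types and share libraries, so r mostly follows the step from DP to CD8 cells. *Gimap3*, a GTPase of lymphocytes, had mean CPM of 25.3, 6.78, 409.6 and 299.7 in DP control, DP cKO, CD8 control and CD8 cKO samples, and *Gimap4* 26.1, 7.22, 301 and 212. *Sorl1* had 24.8, 12.7, 306 and 341 in the same groups, *Slfn1* 6.79, 2.40, 197 and 149, and *Ccnd2*, a D-type cyclin, 42.6, 19.3, 1184 and 1197. *Zfp831* was at 25, 15.3, 218 and 194, *Bach2*, a transcriptional repressor in lymphocytes, at 55.3, 34.5, 439 and 424, and *Bcl2*, which protects cells from apoptosis, at 54.1, 33.9, 346 and 374. Over the 6 DP samples alone, 2 of these 8, *Gimap3* and *Bach2*, were again among the 8 nearest genes, and 5 of them were so without the CD8 samples numbered 1 and 2.

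Within groups the 8 genes varied together only in part. Deviations of log2(CPM + 1) from the group means gave 28 pairs of genes with a median r of 0.187 over 16 samples, from -0.455 to 0.768, and 18 pairs above 0. The median was -0.231 over the 6 DP samples and 0.271 over the 10 CD8 samples, and the points share libraries. *Gng2* and *Cd226* had the highest r at 0.768, followed by *Cd53* and *Cd226* at 0.71 and *Tes* and *Fam102a* at 0.706. In the library labelled CD8 cKO 4 all 8 genes were above their group mean, whereas in CD8 control sample 2 and CD8 cKO sample 1 it was 0 of 8. The DP samples had 4 to 6 of the 8 genes above their group mean, so no DP sample was high or low in all of them.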

How the data were processed

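The authors filtered reads with fastp (0.13.1), aligned them by strand with HISAT2 (2.1.0) and counted fragments per gene by strand with featureCounts (1.6.1), per the submitters' processing notes and the study's methods, and the raw counts the authors deposited are the values used here. Coordinates and exonic lengths come from the DP table (mm10), which also served for CD8 cells, for which the build is named in the notes only. The columns called Ctrl and Tox4_KO in the CD8 table were taken as control and cKO by name and number.

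Each comparison was fitted on all genes with edgeR (4.0.16, R 4.3.3), using only its own groups, TMM, filterByExpr, the quasi-likelihood test and Benjamini-Hochberg adjustment; the difference between cell types was fitted on all 4 groups. Tests were 2-sided. Calls used the study's thresholds. TPM used the exonic lengths. Figures used Python (3.11.15) and matplotlib (3.10.9). The code was tested on simulated data. Total counts of 8514135 to 25981683 per sample leave counting error small except for genes with few counts, such as *Gng2* in DP cKO cells.

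Same-numbered CD8 control and cKO samples deviated from their group means together over 12131 genes. The mean r was 0.309 over 5 pairs, each at least 0.115, and -0.0798 over other pairs. Pairing by the labels' numbers is therefore given beside the CD8 count. The rule was an r of at least 0.1 in every same-numbered pair, which the DP samples did not meet (lowest 0.0767, mean 0.376). Alternatives were DESeq2 (1.42.0), which the study used, RLE and upper-quartile normalization, no low-count filter or 10 counts in every sample, no TPM minimum, all 4 groups in 1 fit, the replicate block, leaving out each sample in turn, and leaving out both CD8 samples with the number 1, and, added after the data were seen, those numbered 1 and 2; for similar genes a pseudocount of 0.1 or the 6 DP samples, and for the order CPM.

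The 8 genes and the lists of related genes and markers were chosen with earlier results of these data known. A further list of related genes is not reported here. Named are these 8 and *Tox4*; in each list the genes called in a cKO comparison and up to 4 others, first those called with the smallest p between control cell types, then the most abundant; the 8 genes most like the set with a mean CPM of at least 1 in both cell types; and those beside the threshold. *Klf2*, *Ccr7*, *H2-Aa*, *Cd74*, *B2m*, *Cd8a*, *Cd8b1*, *Cd27* and *Top2a* were named after their values were seen.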

Additional observations from a re-analysis of the deposited data

Results flagged for a closer look

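In groups of 5 samples, the highest or lowest sample was looked at where its gap to the next was wide against the range of its group. This held for 6 of 40 groups of values, where chance gives about 2. CD8 control sample 1 was the highest of its group in *Fam102a*, at 786 CPM, in genes detected, at 17741, and in the summed markers of B cells, at 39.2 CPM, of NK and γδ T cells, at 27.1 CPM, and of thymic epithelium, at 6.38 CPM. CD8 cKO sample 1 was the highest of its group in the markers of NK and γδ T cells, at 35.8 CPM.

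Outside the 8 genes, 5 named genes had an adjusted p under 0.05 in edgeR's test of the CD8 change minus the DP change. These are the 5 others that passed the threshold used to choose the 8, so the count repeats that choice and supports nothing further. The difference was 0.79 for *Bcl2*, 1.44 for *Gimap3*, 1.16 for *Ccnd2*, 1.34 for *Gimap4* and 1.99 for *F13a1* on the log2 scale. *F13a1*, a transglutaminase subunit, was at 186 CPM in DP control, 182 CPM in DP cKO, 9.06 CPM in CD8 control and 35.2 CPM in CD8 cKO samples on average.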

How the results depend on the processing

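All 8 genes were called higher in control CD8 than in control DP cells in each of the 17 alternatives, *Tes* at 0.87 to 1.05 and *Samhd1* at 3.55 to 3.74 on the log2 scale, and no named gene that was called changed direction. Without a low-count filter and with DESeq2, which keep more genes of low level, the median over all genes tested in that comparison was 0.33 and 0.36. The DP values of the 8 genes stayed negative in 14 alternatives, *Gng2* at -2.07 to -1.68. This is no sign of stability, since the genes were chosen for a negative value there. The CD8 values of *Rhof* (-0.046 to 0.14), *Cd53* (-0.0045 to 0.13), *Tes* (-0.058 to 0.044) and *Fam102a* (-0.032 to 0.10) lay on both sides of 0. The DP comparison rests on 3 samples a group, and genes at few counts are measured with the least precision.

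Counts of called genes depended on the settings. In DP cells (17 genes, 10 higher and 7 lower) DESeq2 called 159, 91 higher and 68 lower, no low-count filter 74 (45 and 29), all 4 groups in 1 fit 42 (17 and 25), and leaving out a sample 0 to 8 (0 to 6 higher, 0 to 2 lower), with 0 without DP control sample 2 (990 at an unadjusted p under 0.05). The number as a replicate block gave 131 DP genes (74 and 57). The DP samples did not meet the rule for pairing, an r of at least 0.1 in every same-numbered pair, as the lowest pair was at 0.0767. Their mean r was 0.376 for same-numbered and -0.180 for other pairs, so pairs in DP cells are not excluded. In CD8 cells (11 genes, 10 higher and 1 lower) DESeq2 called 46 (35 and 11), the replicate block 31 (25 and 6), the fits without both samples numbered 1 and without those numbered 1 and 2 each called 5 (4 higher), all 4 groups in 1 fit 14 (2 of them lower), and leaving out a sample 4 to 20 (3 to 18 higher, 1 to 2 lower), the highest without the library labelled cKO 4. The difference between cell types (13 genes) passed for 3 genes with upper-quartile normalization, 36 with DESeq2, 33 with the replicate block, 5 without the CD8 samples numbered 1 and 2 and 0 to 11 with a sample left out. The causes were not tested. Control DP and CD8 samples were not paired by number (mean r -0.0251), and with the block all 8 genes were still called there, 7 in place of 5 were called in DP and 0 in CD8 cells, where 2 had an unadjusted p under 0.05 (0 called by DESeq2). Of the 8 most similar genes, 2 were shared when the 6 DP samples were used alone and 5 without the CD8 samples numbered 1 and 2. By CPM in place of TPM, 5 of the 8 genes kept their rank in DP control, 2 in CD8 control and 1 in CD8 cKO samples.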
